A study of Mus musculus with 32 samples.

Results

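Mouse parathyroid cells that had formed inside a newborn rat were set against native parathyroid cells of adult mice. The members are the 4 libraries whose titles give mouse embryonic stem cell (ESC)-derived parathyroid gland (PTG) cells from a Gcm2-/- rat, of 32 libraries in the series, and they were compared with the 8 libraries titled as control PTG cells. In the rat host, a Gcm2-/- Wistar rat was complemented with Pth-tdTomato mouse ESCs, and the cells were collected from neonates of unknown sex. Control cells came from C57BL/6 mice that carry 1 Pth allele with tdTomato attached by a P2A peptide. Control experiment 1 used males of 8 weeks and control experiment 2 females of 11 weeks, with 4 libraries each. ESC-derived cells from Gcm2-/- mouse hosts (a BDF1B6 background, 9 weeks, 16 libraries in 4 experiments) and grafted ESC-derived cells (male, 12 weeks, 4 libraries) entered the fit and are given only as values. Every group carries the tdTomato reporter at Pth, and a library holds 10 to 20 red cells taken with a micromanipulator, so the cells were chosen for Pth activity.

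Host species, age, ESC origin, donor strain and experiment all differ between the rat-host and the control libraries, and their parts in any difference cannot be told apart. The libraries are titled as biological replicates, but the labels do not say which animals they came from, whether the ESC line is 1 clone, or whether the ESCs carry the reporter on 1 or both Pth alleles. There was 1 rat-host experiment. A lower value in a pool of cells cannot be assigned to fewer cells of a kind or to less RNA per cell. The tables list mouse transcripts, so any RNA of the rat host's own cells cannot be told apart here. Whether such RNA was counted under mouse genes was not tested.

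The parathyroid gland senses blood calcium. When calcium falls below the set point of the calcium-sensing receptor (Casr), chief cells release parathyroid hormone (Pth) from granules that also hold chromogranin A (Chga), and the hormone draws calcium from bone and kidney. The gland arises from the pharyngeal pouches and needs the transcription factor Gcm2, so an embryo without Gcm2 has an empty parathyroid niche that donor stem cells can fill, a procedure called blastocyst complementation.

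Rat-host libraries held 11656514 to 12808317 reads, against 29471254 to 32264864 in control experiment 1 and 10742058 to 13731015 in control experiment 2. Between 12760 and 13102 genes were detected per rat-host library and between 12432 and 13445 per control library. Gcm2, which the rat host lacks and the donor cells carry, had 779, 636, 753 and 659 CPM (read counts scaled to a common TMM-adjusted library size) in the rat-host libraries, against 490 to 888 CPM in the controls. The defining parathyroid genes Pth, Gcm2, Casr and Chga were all present in every library, as the label says. Of 8 fibroblast markers, 1 had no read in any rat-host library, and their summed level was 0.338 to 12 CPM in the rat host, against 0 to 12.7 CPM in control experiment 1 and 1.78 to 3338 CPM in control experiment 2. The value of 3338 CPM belongs to control experiment 2 replicate 3 alone. All 7 macrophage markers were at 0 in the rat host, against 0 to 17.9 CPM in controls. The male-specific Y-linked genes Ddx3y and Uty had no read in the rat host, and Ddx3y had none in the female control experiment 2, against 23.1 to 68.2 CPM in the male control experiment 1. Of the 8 sex-linked genes tested, only these 2 lacked reads in every rat-host library. The Y-linked Eif2s3y and Kdm5d, also listed, thus had reads there, and the sex of the rat-host cells was not tested.

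Few genes passed the test, and most that did were lower in rat-host cells. A gene counted as different when edgeR's quasi-likelihood test on the 8 experiment sums gave an adjusted p below 0.05 and all 4 rat-host libraries lay on one side of both control experiment means. Of 15698 genes tested, 41 were called (0.261%). In the rat host 5 were higher (0.0319%) and 36 were lower (0.229%). The 4 rat-host libraries lay outside the range of all 8 control libraries for 38 of the 41, and overlapped it for Itga7, Cyp4v3 and Pfkp. Genes were called partly by the position of these same libraries, so the 38 are not further evidence of a difference. The rule on library positions alone took in 4865 genes (31.0%), with 1898 higher (12.1%) and 2967 lower (18.9%), and 1212 genes (7.72%) had all 4 rat-host libraries beyond every control library, 623 of them higher (3.97%) and 589 lower (3.75%). An unadjusted p below 0.05 was reached by 1840 genes (11.7%).

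The count of 41 rests on both control experiments and on the mouse-host experiments, which supply most of the error estimate. Without control experiment 1 it was 6 genes (Ces1d, Efemp1, Gfra4, Klhl33, Msrb3 and Slc1a1), without control experiment 2 it was also 6 (Ces1d, Efemp1, Gfra4, Kcng4, Klhl33 and Slc1a1), and with only the rat-host and control experiments it was 1 (Tnmd). It was 71 without rat-host replicate 1, 68 without rat-host replicate 2, 103 without mouse-host experiment 1 and 26 without mouse-host experiment 3. Other tools called more: DESeq2 on the same sums called 771 of 15698 genes (4.91%) and limma-voom on single libraries called 1229 of 13135 (9.36%).

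Which direction prevailed differed with the scaling, the unit and the tool. Pth and Chga together took 18.3 to 20.2% of all reads in rat-host libraries and 29.4 to 32.8% in control libraries, and TMM scaling allows for that. The rule on library positions gave 1898 genes higher and 2967 lower with TMM scaling, 2959 higher and 1879 lower with CPM of all reads, and 3558 higher and 1442 lower in TPM (abundances that also allow for transcript length). Calls gave 5 higher and 36 lower with TMM scaling, 70 higher and 55 lower with library totals, while limma-trend, run on TPM, gave 506 higher and 96 lower. Limma-voom on single libraries, also with TMM scaling, gave 807 higher and 422 lower, and DESeq2, with its own size factors, gave 298 higher and 473 lower. The median log2 difference (rat host minus control) of all genes was -0.02 with TMM scaling, 0.14 with library totals and 0.37 in TPM. All differences below are with TMM scaling, by which 7258 of the 15698 genes tested were positive and 7980 negative.

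**Figure D1:**
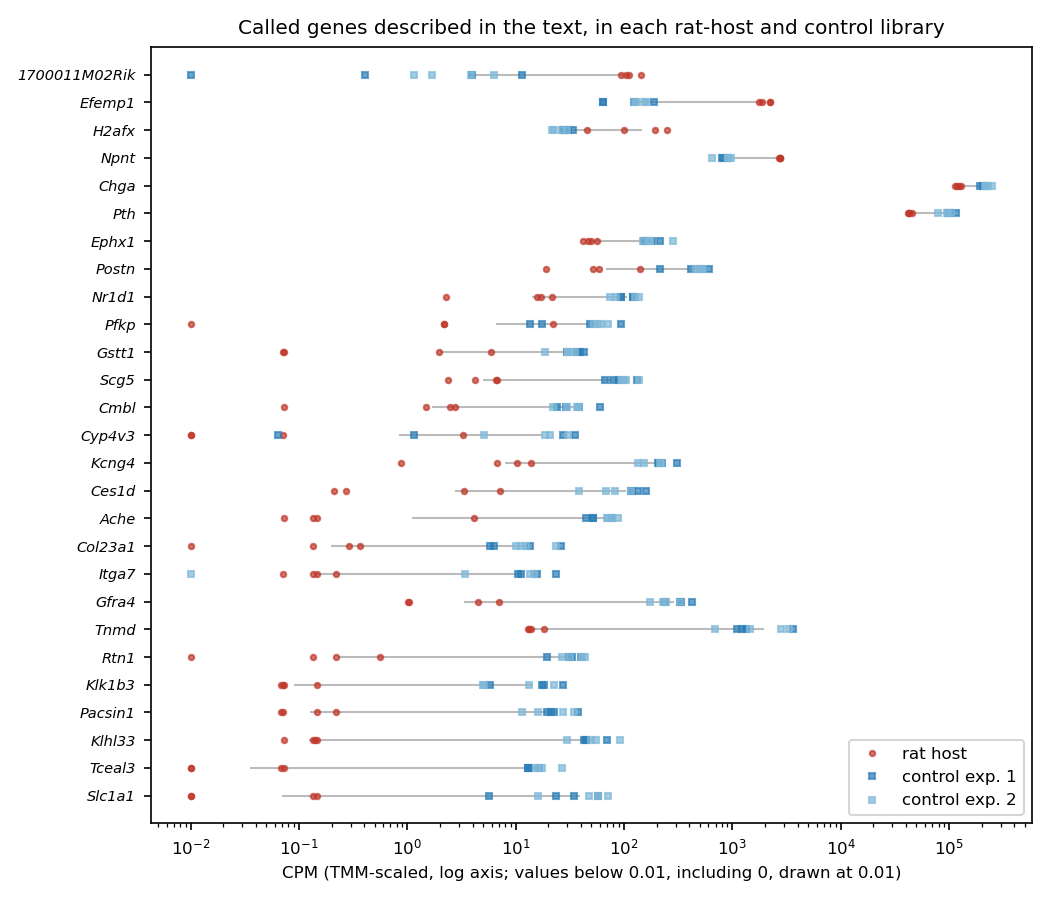
CPM (horizontal axis, log scale, values of 0 drawn at the left edge) of 27 of the 41 called genes in each rat-host library (red circles) and control library (blue squares), with a grey line between the group means. The 4 genes at the top were higher in rat-host cells, Efemp1 at 1771 to 2248 CPM against 64.5 to 188 CPM in controls, and the other 23 were lower.

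Both main secretory products of the parathyroid cell were lower in the rat host. Pth had 45297, 42194, 42421 and 42444 CPM in the rat-host libraries, against 114814, 103022, 100212 and 97535 CPM in control experiment 1 and 78978, 98307, 104206 and 96234 CPM in control experiment 2. All 4 rat-host values lay below every control value. The log2 difference was -1.16 (SE 0.16, adjusted p = 0.0334, edgeR). Set against each control experiment in turn, it was -1.26 (SE 0.07) for experiment 1 and -1.13 (SE 0.07) for experiment 2. Both came from a single edgeR fit of all rat-host and control libraries, whose SEs reflect scatter between libraries within an experiment. The mean of Pth was 89186 CPM over the mouse-host experiments and 107058 CPM over the grafted libraries. On the TPM scale the difference was -0.69 with an adjusted p of 0.0567 by limma-trend.

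Chga, a protein of the granule core, had 129721, 113376, 117316 and 123220 CPM in the rat-host libraries and 194767 to 249008 CPM in the controls. These groups were also apart, with a log2 difference of -0.80 (SE 0.10, adjusted p = 0.027, edgeR), and on the TPM scale of -0.41 with an adjusted p of 0.219 by limma-trend. Per length, Pth stood above Chga in both: 144801 TPM of Pth and 94036 TPM of Chga in the rat host, against 233388 TPM of Pth and 125101 TPM of Chga in controls. Neither Pth nor Chga was called without mouse-host experiment 3, and Chga was not called without mouse-host experiment 2.

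The largest difference among granule genes was in Scg5, which encodes 7B2, the chaperone of prohormone convertase 2. Scg5 fell to 6.77, 2.4, 4.18 and 6.62 CPM in the rat-host libraries, against 66.9 to 137 CPM in the controls (log2 difference -4.28, SE 0.56, adjusted p = 0.0288, edgeR). Mouse-host cells averaged 73.6 CPM and grafted cells 82.3 CPM. Of 24 hormone and granule genes listed, 15 were tested, 3 fell (Pth, Chga and Scg5) and none rose. The median of the 15 was -0.28 (-0.44 with 3 genes that lacked reads in a group held at a floor of 3 reads), against -0.02 over all genes tested. Vamp2, a vesicle protein of the release machinery, had 45.3 to 65.7 CPM in the rat host against 83.7 to 116 CPM in controls, with the groups apart but not called (adjusted p = 0.361, edgeR). Cpe, the carboxypeptidase that trims prohormones, had 280 to 351 CPM in the rat host against 167 to 304 CPM in controls.

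**Figure D2:**
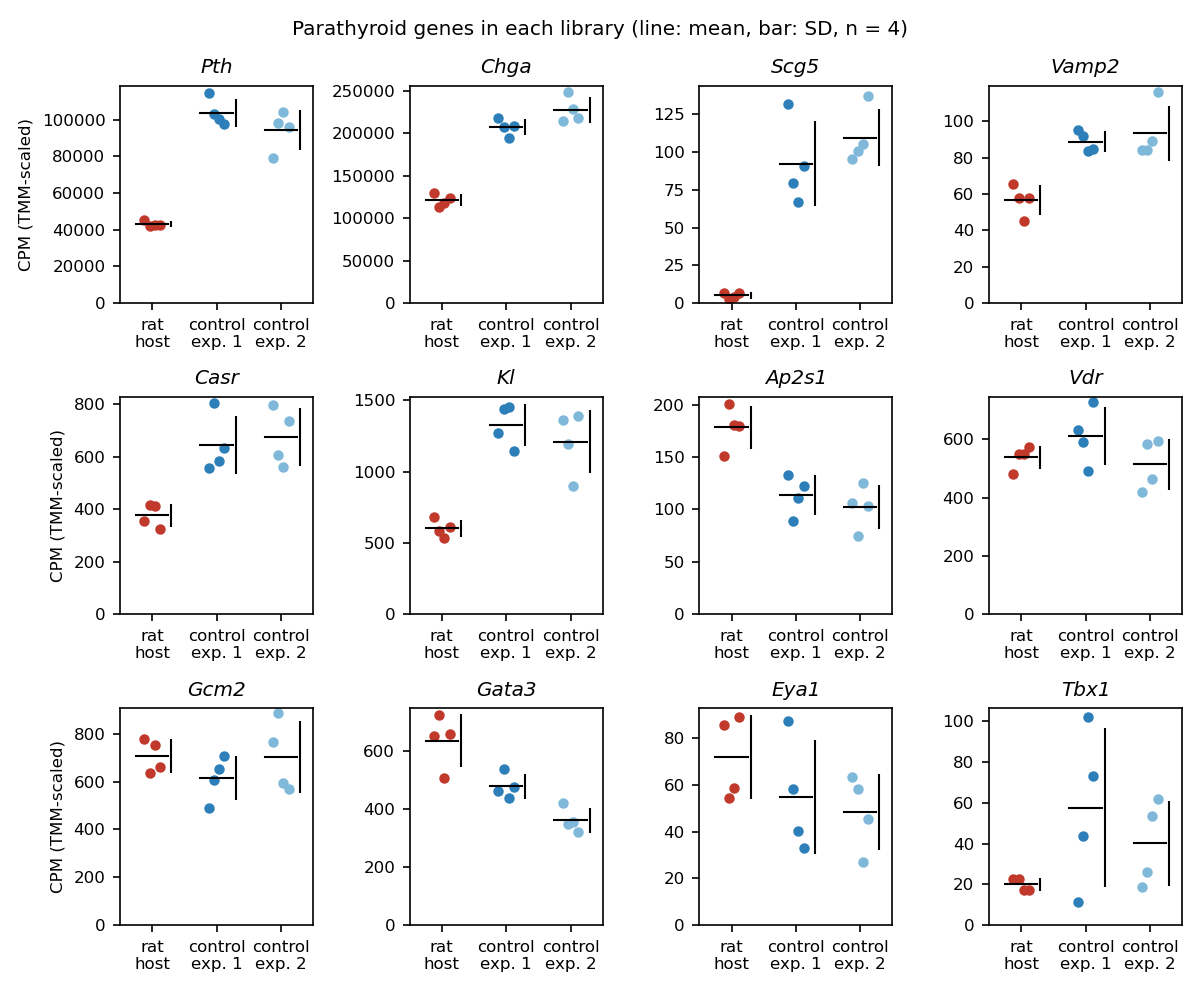
CPM per library (vertical axis) of 12 parathyroid genes in rat-host cells and the 2 control experiments, 4 points each, with lines for means and bars for SDs. Pth and Chga lie below every control library in the rat host, while Gcm2 overlaps the controls.

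Of the genes by which the gland reads calcium, vitamin D and FGF23, Casr and Kl had lower values than every control library and Ap2s1 higher ones, and none of the 3 was called. Of 22 listed, 17 were tested and none was called, and their median was -0.02. Casr, the calcium receptor itself, had 355, 416, 412 and 326 CPM in the rat-host libraries and 556 to 804 CPM in the controls. Kl, which encodes klotho, the co-receptor for FGF23, had 680, 581, 537 and 612 CPM in the rat-host libraries and 900 to 1455 CPM in the controls. Both genes had groups that did not overlap, and neither passed the test: the log2 difference of Casr was -0.75 (SE 0.28, adjusted p = 0.353, edgeR) and that of Kl -1.02 (SE 0.28, adjusted p = 0.192, edgeR). In the fit of single rat-host and control libraries, Kl was at -1.13 (SE 0.14) against experiment 1 and -1.01 (SE 0.14) against experiment 2. Ap2s1, an adaptor subunit that binds Casr for endocytosis, had 151 to 201 CPM in the rat host against 74.2 to 133 CPM in controls. The vitamin D receptor gene Vdr had 481 to 573 CPM in the rat host against 418 to 730 CPM in controls, with a difference of -0.01 whose sign turned under other scalings. Fgfr2, an FGF receptor, had 98.1 to 210 CPM in the rat host against 39.4 to 132 CPM in controls, and Gnas, the stimulatory G protein, 5855 to 8045 CPM in the rat host against 3748 to 6534 CPM in controls, so both overlapped.

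Among the listed transcription factors that build and hold parathyroid identity, 1 had no read in any rat-host library. Of 17 listed, 16 were tested and none was called, with a median of 0.12 that was -0.03 in median-centred TPM, -0.03 without rat-host replicate 3 and -0.04 without control experiment 2 replicate 3. Gata3, which acts upstream of Gcm2, had 506 to 723 CPM in the rat host against 321 to 537 CPM in controls. The ranges overlapped, as did those of the pharyngeal pouch factors Eya1 (54.3 to 89 CPM in the rat host, 26.9 to 87.5 CPM in controls) and Pax9 (269 to 285 CPM in the rat host, 151 to 277 CPM in controls). Tbx1, another pouch factor, had 17 to 22.8 CPM in the rat host against 11.5 to 102 CPM in controls. Men1, the tumour suppressor of multiple endocrine neoplasia, had 45.4 to 69.2 CPM in the rat host against 16.7 to 64.1 CPM in controls.

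Of the 5 genes that rose, the most abundant by reads were an extracellular matrix fibulin and an integrin ligand. Efemp1, which encodes fibulin-3, a glycoprotein of elastic tissue, had 2230, 1771, 1880 and 2248 CPM in the rat-host libraries, against 123, 188, 64.5 and 64.7 CPM in control experiment 1 and 126, 158, 159 and 132 CPM in control experiment 2. Every rat-host library was far above every control library (log2 difference 4.04, SE 0.22, adjusted p = 0.000874, edgeR). In the fit of single libraries, the difference was 4.21 (SE 0.31) against control experiment 1 and 3.82 (SE 0.31) against control experiment 2. Mouse-host cells averaged 126 CPM and grafted cells 135 CPM, and rat-host minus mouse-host cells gave 4.08 (adjusted p = 0.000156, edgeR). Efemp1 was called with either control experiment left out.

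Npnt encodes nephronectin, a basement membrane ligand of integrin alpha8 beta1 in kidney development. It had 2773, 2773, 2738 and 2692 CPM in the rat-host libraries, against 796, 820, 907 and 909 CPM in control experiment 1 and 905, 917, 646 and 966 CPM in control experiment 2. The groups were apart, and the SD over the 4 rat-host libraries was 38.4 CPM (log2 difference 1.73, SE 0.20, adjusted p = 0.0218, edgeR). Mouse-host cells averaged 1004 CPM and grafted cells 715 CPM.

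Reads assigned by Salmon to the transcripts of Npnt were divided differently between its starts. The transcript Npnt-205 took 45.6, 43.6, 44.7 and 46.5% of the reads of the gene in the rat-host libraries and 5.01 to 34.1% in controls (median 22.8%). The longer Npnt-202 took 38.8 to 42.9% in the rat host and 51.3 to 83.5% in controls (median 65.3%). As levels, Npnt-205 had 1208 to 1264 CPM in the rat host against 39.9 to 330 CPM in controls, and Npnt-202 had 1063 to 1176 CPM in the rat host against 435 to 665 CPM in controls. Both transcripts were thus higher in every rat-host library than in any control library, and the share of Npnt-205 was higher too. The 2 starts lie 477 bases apart on the minus strand of chromosome 3, and each has a promoter window in RefSeq (GRCm38.p6), at chr3:132950242-132950541 for Npnt-202 and chr3:132949765-132950064 for Npnt-205. The first exon of Npnt-202 has 319 bases and holds the start codon, while that of Npnt-205 has 37 bases and its start codon is in exon 4. The transcripts also differ at their 3' ends, with last exons of 2769 bases in Npnt-202 and 1815 bases in Npnt-205, so the division does not rest on the starts alone, and no test was made of an estimate shared among overlapping transcripts. Both windows are shown because they are the 2 starts between which the reads were divided, with the 250 bases before the start in lower case and the first 50 transcribed bases in capitals.
Npnt-202 start: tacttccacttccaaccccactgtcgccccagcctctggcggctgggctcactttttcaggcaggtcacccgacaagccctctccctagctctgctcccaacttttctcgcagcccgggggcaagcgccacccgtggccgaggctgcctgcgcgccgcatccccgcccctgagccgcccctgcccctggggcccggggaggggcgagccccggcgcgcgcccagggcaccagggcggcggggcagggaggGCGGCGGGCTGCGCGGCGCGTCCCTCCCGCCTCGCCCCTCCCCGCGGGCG
Npnt-205 start: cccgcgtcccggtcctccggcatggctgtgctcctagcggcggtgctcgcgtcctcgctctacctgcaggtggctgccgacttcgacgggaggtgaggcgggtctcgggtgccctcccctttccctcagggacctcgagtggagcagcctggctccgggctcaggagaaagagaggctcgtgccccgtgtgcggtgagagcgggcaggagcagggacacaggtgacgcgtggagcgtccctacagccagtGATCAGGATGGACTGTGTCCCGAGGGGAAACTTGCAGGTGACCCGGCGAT

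**Figure D3:**
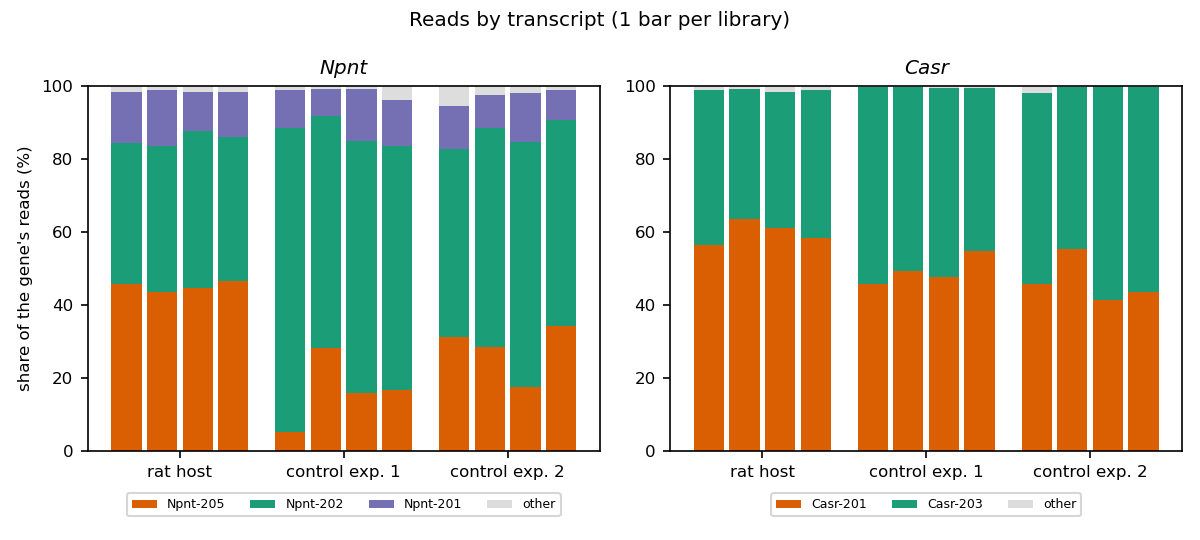
Stacked bars, 1 per library, of the share of a gene's reads (vertical axis, percent) on its main transcripts, for Npnt and Casr in rat-host cells and the 2 control experiments. Npnt-205 sits at 43.6 to 46.5% in the rat host, above all controls.

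A histone variant and an X-linked gene also rose. H2afx, the histone H2A variant marked at DNA breaks, had 45.9, 194, 100 and 248 CPM in the rat-host libraries and 21.6 to 34 CPM in the controls (log2 difference 2.49, SE 0.31, adjusted p = 0.027, edgeR). Rat-host replicates 2 and 4 were highest, and the same replicates had the highest summed levels of mitotic genes, given below. 1700011M02Rik, a gene of chromosome X named here after its values were seen, had 143, 93.7, 111 and 104 CPM in the rat host against 0 to 11.5 CPM in controls (log2 difference 5.04, SE 0.60, adjusted p = 0.0254, edgeR).

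Some of the genes that fell were near silence in the rat host. For 8 of the 36 called lower, all 4 rat-host libraries together held at most 13 reads. The share of all tested genes with so few rat-host reads was not counted. Slc1a1 encodes the glutamate and cysteine transporter EAAC1, and it had 0.146, 0, 0 and 0.135 CPM in the rat-host libraries, against 5.65 to 71.8 CPM in controls, which is 4 reads against 5895 (adjusted p = 0.00454, edgeR). Tceal3, an X-linked gene of the transcription elongation factor A-like family, had 2 reads in all in the rat host and 2601 in controls. After scaling for library size, control cells held 434 times as much Tceal3 as rat-host cells (exact 95% counting interval 120 to 3584). Klhl33, of the kelch-like family, had 0.0732 to 0.146 CPM in the rat host against 29.6 to 91 CPM in controls (log2 difference -8.65, SE 0.50, adjusted p = 0.000874, edgeR).

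Pacsin1, which bends membranes during vesicle endocytosis in neurons, had 0.0676 to 0.22 CPM in the rat host against 11.5 to 37.6 CPM in controls. Rtn1, an endoplasmic reticulum shaping protein of neuroendocrine cells, had 0 to 0.566 CPM in the rat host against 19.5 to 43.6 CPM in controls. Col23a1, a transmembrane collagen, had 0 to 0.366 CPM in the rat host against 5.77 to 26.5 CPM in controls. Each of these 3 genes was at trace level in all 4 rat-host libraries and present in all 8 control libraries. The same holds for the kallikrein Klk1b3, at 0.0676 to 0.146 CPM in the rat host against 4.95 to 27.5 CPM in controls, although it belongs to a tandem family of near-identical genes and its reads are uncertain. Itga7, a laminin receptor subunit, was at 0.0707 to 0.218 CPM in the rat host against 0 to 23.6 CPM in controls, where control experiment 2 replicate 4 was at 0, so its groups overlapped. Itga7 was not called without control experiment 1 replicate 2 or 3 or control experiment 2 replicate 1 or 2. No molecular identifiers are stated for these reads, so counting intervals cover counting error only.

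Other genes fell from high control levels. Tnmd encodes tenomodulin, a membrane glycoprotein known from tendon, and it had 12.9, 13.9, 18.2 and 13.2 CPM in the rat-host libraries against 688 to 3658 CPM in controls. Its log2 difference was -7.01 (SE 0.87, adjusted p = 0.027, edgeR), although limma-voom, which fits single libraries, gave an adjusted p of 0.553. In control experiment 1 replicate 4, where all 8 fibroblast markers were at 0, Tnmd had 1331 CPM. The part of other cell kinds in the Tnmd values was not tested. Mouse-host cells averaged 1826 CPM of Tnmd and grafted cells 1721 CPM. Kcng4, a modulatory subunit of voltage-gated potassium channels, had 6.7, 10.4, 0.879 and 14 CPM in the rat-host libraries against 135 to 310 CPM in controls (adjusted p = 0.0116, edgeR). Ache, acetylcholinesterase, had 0.0728, 4.1, 0.146 and 0.135 CPM in the rat-host libraries against 44.3 to 88.7 CPM in controls (adjusted p = 0.027, edgeR). In all 3 genes the highest rat-host library was below the lowest control library. A further 13 genes in no list fell, with log2 differences of -4.29 to -1.80.

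Receptors of the GDNF family pair a membrane-anchored Gfra subunit with the kinase Ret, and 1 Gfra subunit fell. Gfra4, the receptor for persephin, fell to 1.02, 4.45, 1.03 and 6.96 CPM in the rat-host libraries, against 174 to 422 CPM in controls (log2 difference -6.33, SE 0.56, adjusted p = 0.0116, edgeR). Gfra2, the receptor for neurturin, had 179, 250, 212 and 245 CPM in the rat-host libraries and 32.3 to 76.6 CPM in controls, with groups apart but an adjusted p of 0.0556 (edgeR). Gfra4 was called with either control experiment left out. Ret itself had reads only in rat-host replicate 3 (4.91 CPM) and none in the other rat-host or the control libraries. The neural adhesion molecule Ncam1, which can bind GDNF with Gfra subunits, had 3.42 to 20.7 CPM in the rat host against 0 to 6.55 CPM in controls. Of 12 listed genes, 9 were tested and 1 was called.

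Enzymes of detoxification and redox control had mostly negative differences. Of 36 listed, 33 were tested, 2 fell, none rose, and 26 had a negative difference, with a median of -0.84 (-0.80 with 9 genes held at the floor) against -0.02 for all genes. Gstt1, a glutathione transferase, had 5.9, 0.0707, 0.0732 and 1.96 CPM in the rat-host libraries against 18.6 to 42.5 CPM in controls (adjusted p = 0.0146, edgeR). Ephx1, microsomal epoxide hydrolase, had 46.9, 56.2, 41.9 and 49.3 CPM in the rat-host libraries against 149 to 285 CPM in controls (log2 difference -1.87, SE 0.21, adjusted p = 0.0201, edgeR). Both were apart from the controls. Cbr3, a carbonyl reductase, had 11.9 to 42 CPM in the rat host against 77.7 to 127 CPM in controls, and Mgst1, a microsomal glutathione transferase, 16.6 to 35 CPM in the rat host against 61.2 to 107 CPM in controls, and neither passed the test. Outside the list, the hydrolases Ces1d, a carboxylesterase, and Cmbl, a carboxymethylenebutenolidase homolog, also fell. Ces1d had 7.21, 0.212, 3.37 and 0.27 CPM in the rat-host libraries and 38.5 to 159 CPM in controls, and Cmbl 2.77, 2.47, 0.0732 and 1.49 CPM in the rat-host libraries and 22.1 to 59.9 CPM in controls. Cyp4v3, a fatty acid hydroxylase, was called lower although 1 control library (0.0642 CPM) lay within the rat-host range of 0 to 3.3 CPM, and it was not called without control experiment 1 replicate 1 or 2.

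Of the circadian clock genes, a repressor of the feedback loop fell. Nr1d1, the repressor Rev-erb alpha, had 17.3, 21.7, 2.27 and 15.9 CPM in the rat-host libraries against 74.1 to 139 CPM in controls (log2 difference -2.83, SE 0.38, adjusted p = 0.0313, edgeR). Its relative Nr1d2 had 21.2 to 38.9 CPM in the rat host against 44.7 to 151 CPM in controls. Dbp, a D-box activator, had 11, 17, 11.9 and 17.2 CPM in the rat-host libraries, against 123 to 186 CPM in control experiment 1 and 55.5 to 75.2 CPM in control experiment 2. Of the 3, Nr1d1 alone was called. The control experiments differed in Dbp from each other, and the labels give no time of day for any library. Of 18 clock genes tested, 1 fell and 13 had a negative difference (7980 of 15698 over all genes), with a median of -0.57. The E box CACGTG, searched on both strands, is in the promoter window of 5 of 16 clock genes with a window (31.2%) and of 8.09% of 27025 genes.

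Among the other secreted matrix genes, Postn fell. Postn, periostin, a matrix protein of remodelling tissue, had 58.6, 142, 51.8 and 19.1 CPM in the rat-host libraries against 214 to 615 CPM in controls (log2 difference -2.74, SE 0.30, adjusted p = 0.0201, edgeR). The basement membrane collagens Col4a1 and Col4a2, which share a promoter region, were on the other side. Col4a2 had 110, 146, 98.2 and 133 CPM in the rat-host libraries and 4.88 to 27.9 CPM in controls (adjusted p = 0.0529, edgeR), and Col4a1 had 103 to 177 CPM in the rat host against 17.2 to 56 CPM in controls (adjusted p = 0.0587, edgeR). Both collagens were apart from the controls and just outside the threshold. The control library rich in fibroblast markers, control experiment 2 replicate 3, had 467 CPM of Postn, within the range of the other controls. The part of fibroblasts in the Postn values was not tested. Of 22 genes tested, 1 rose and 1 fell.

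Genes of DNA replication and mitosis all had positive differences, with large spread between libraries. All 24 S-phase genes were tested and all 24 were positive, with a median log2 difference of 1.59, and none was called. All 24 G2 and M-phase genes were positive as well, with a median of 2.85, and none was called. By limma-voom, on single libraries, the median was 3.01 for S phase and 6.21 for G2 and M phase (4.69 by edgeR without control experiment 1 replicate 4), and 14 of the S-phase and 16 of the G2 and M-phase genes had an adjusted p below 0.05. The share of all genes at that threshold without the rule on library positions was not counted. With the rule as well, limma-voom called 10 of the S-phase genes and 1 of the G2 and M-phase genes, against 1229 of 13135 genes (9.36%). The summed S-phase level was 933, 1291, 1640 and 1623 CPM in the rat-host libraries, against 351 to 475 CPM in control experiment 1 and 361 to 1603 CPM in control experiment 2. The summed G2 and M level was 115, 2367, 1046 and 3682 CPM in the rat-host libraries, against 8.28, 15.3, 23.2 and 1530 CPM in control experiment 1 and 530, 17.6, 23.5 and 15.4 CPM in control experiment 2. A pair of control libraries thus stood with the rat-host libraries: control experiment 1 replicate 4 in the G2 and M sum, and control experiment 2 replicate 1 in both. Rat-host replicate 1 was low in the G2 and M sum yet above the other 6 control libraries. How many dividing cells a pool held was not measured.

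Mcm2, a subunit of the replicative helicase, had 87.2 to 183 CPM in the rat host against 0.289 to 98.5 CPM in controls, and its fellow subunit Mcm4 had 49.6 to 94 CPM in the rat host against 0.0627 to 60.1 CPM in controls. Fen1, the flap endonuclease of lagging-strand synthesis, had 36.8 to 93.6 CPM in the rat host against 0 to 46.6 CPM in controls. Ccna2, cyclin A2, had 5.68, 141, 98.2 and 199 CPM in the rat-host libraries and 0 to 47.7 CPM in controls. All 4 ranges overlapped between the groups. The mitotic kinase Aurka had 0.0728, 54.3, 47.8 and 185 CPM in the rat-host libraries and 0 to 14.8 CPM in controls, while the checkpoint kinase Bub1b had 0.874, 50.3, 11 and 74.1 CPM in the rat-host libraries and 0 to 31.8 CPM in controls. The spindle protein Tacc3 had 11.9, 126, 70.8 and 153 CPM in the rat-host libraries and 0 to 89.7 CPM in controls. These followed the summed mitotic level, with rat-host replicate 1 lowest and replicate 4 highest.

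Among regulators of the G1 phase, Ccnd3 and Cdk4 were steadier between rat-host libraries, while Cdkn2d was not. Ccnd3, cyclin D3, had 595, 498, 445 and 465 CPM in the rat-host libraries and 160 to 264 CPM in controls, with the groups apart and an adjusted p of 0.0529 (edgeR), just outside the threshold. Its partner kinase Cdk4 had 301 to 354 CPM in the rat host against 173 to 236 CPM in controls. The inhibitor Cdkn2d had 24.5, 80, 84.8 and 126 CPM in the rat-host libraries and 21.1 to 30.3 CPM in controls, so that replicate 1 lay within the control range. Of 15 genes tested in this list, none was called.

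**Figure D4:**
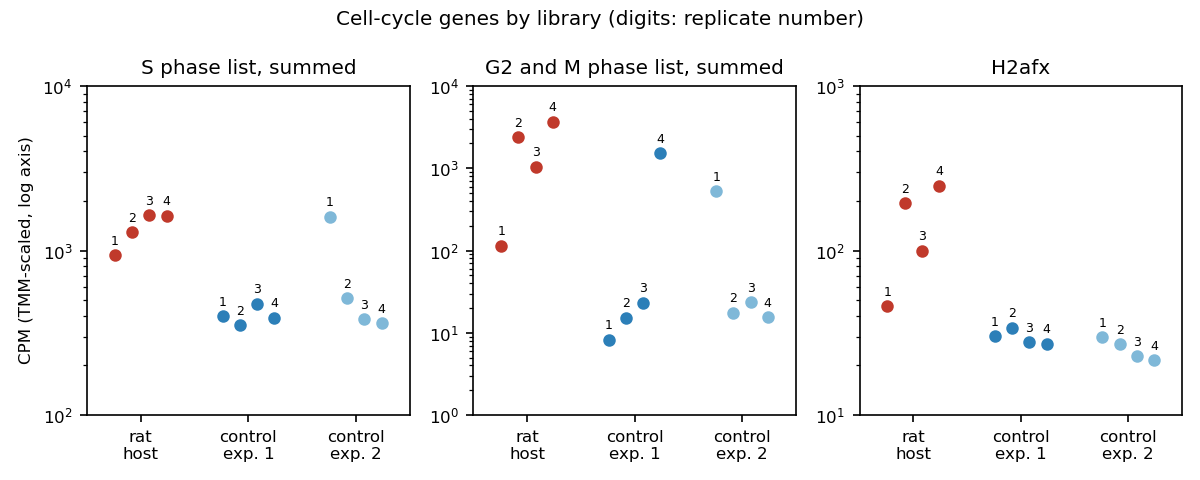
Summed CPM of 24 S-phase and 24 G2 and M-phase genes and CPM of H2afx (vertical axes, log scale) in each library, with digits for the replicate. Control experiment 1 replicate 4 (1530 CPM) and control experiment 2 replicate 1 (530 CPM) stand apart from their experiments in the G2 and M sum.

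Promoter windows of these genes are shown for the letters by which cell cycle genes are known to be grouped. The CHR element TTTGAA, bound by the MuvB complex, was searched on both strands of the 300-base RefSeq window (250 bases before the start and 50 after it). It occurred in 15 of the 21 G2 and M genes with a window (71.4%), in 3 of 21 S-phase genes (14.3%) and in 20.2% of 27025 genes. The E2F site TTTGGCGC occurred in 5 of 21 S-phase genes (23.8%: Cdt1, Mcm3, Mcm5, Mcm6 and Pola1), in 0 of 21 G2 and M genes and in 0.585% of all. A match is a description of the letters and not a measured site. Aurka and Bub1b are shown as the mitotic kinases named above, with TTTGAA in capitals at 32 and 40 bases after the start, and Mcm6, a helicase subunit, with both its copies of TTTGGCGC in capitals, at -110 and -47. They lie at chr2:172370521-172370820 (minus strand), chr2:118597961-118598260 (plus strand) and chr1:128359656-128359955 (minus strand) of GRCm38.p6.
Aurka: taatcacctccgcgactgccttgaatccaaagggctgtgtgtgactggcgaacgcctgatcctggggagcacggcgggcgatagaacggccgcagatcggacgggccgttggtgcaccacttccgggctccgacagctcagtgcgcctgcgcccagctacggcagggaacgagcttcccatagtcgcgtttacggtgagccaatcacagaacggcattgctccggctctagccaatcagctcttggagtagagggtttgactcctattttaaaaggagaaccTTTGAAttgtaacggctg
Bub1b: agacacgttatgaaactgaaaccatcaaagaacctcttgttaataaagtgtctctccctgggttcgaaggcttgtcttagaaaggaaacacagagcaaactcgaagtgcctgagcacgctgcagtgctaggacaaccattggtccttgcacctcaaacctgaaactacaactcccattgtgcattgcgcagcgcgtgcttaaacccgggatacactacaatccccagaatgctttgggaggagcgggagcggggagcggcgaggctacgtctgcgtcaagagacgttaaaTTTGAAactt
Mcm6: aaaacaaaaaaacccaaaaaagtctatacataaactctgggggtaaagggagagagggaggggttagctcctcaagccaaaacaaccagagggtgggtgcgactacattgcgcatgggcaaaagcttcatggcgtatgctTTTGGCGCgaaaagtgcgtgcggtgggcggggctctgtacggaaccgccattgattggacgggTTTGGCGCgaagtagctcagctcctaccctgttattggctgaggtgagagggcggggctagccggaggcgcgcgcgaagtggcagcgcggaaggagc

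Chromatin genes beside H2afx were in part higher in the same libraries. Hmgn2, a nucleosome-binding protein, had 281, 536, 295 and 599 CPM in the rat-host libraries and 87 to 187 CPM in controls, with the groups apart (adjusted p = 0.0863, edgeR). Hmgb2, a DNA-bending protein, had 35.1, 175, 96.4 and 234 CPM in the rat-host libraries and 9.86 to 46.4 CPM in controls, and the linker histone H1f0 408 to 1213 CPM in the rat host against 287 to 605 CPM in controls. Replicates 2 and 4 were the highest of the rat host in Hmgn2 and Hmgb2, as in the mitotic sum, and the part of dividing cells in these values was not tested. Of 15 genes tested, 1 rose (H2afx), with a median of 0.40. Among 14 writers and erasers of DNA methylation none was called. Tdg, the glycosylase that removes oxidised methylcytosine, had 80.4 to 131 CPM in the rat host against 24.3 to 66.9 CPM in controls, and Dnmt3a, a de novo methyltransferase, 50.6 to 89.7 CPM in the rat host against 4.34 to 35.4 CPM in controls. Both were apart from the controls. Uhrf1, which guides maintenance methylation during replication, had 30.2 to 48.6 CPM in the rat host against 0 to 57.6 CPM in controls, where 57.6 CPM belongs to control experiment 2 replicate 1.

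Among genes known for fetal expression, Igf2bp1 and Igf2bp3 were measured at low levels in rat-host cells and were near absent in adult controls. Igf2bp3, an RNA-binding protein of embryonic tissue, had 31.6, 25.9, 23.6 and 25.7 CPM in the rat-host libraries and 0 to 1.09 CPM in the controls, with the groups apart (log2 difference 5.72, SE 1.15, adjusted p = 0.0968, edgeR). Its relative Igf2bp1 had 4.8, 2.69, 1.39 and 11.1 CPM in the rat-host libraries, while the 8 controls held 1 read in all against 287 in the rat host, a ratio of 860 after scaling (exact 95% counting interval 153 to 34099). Nrep had 45.6 to 66.2 CPM in the rat host against 3.95 to 24.4 CPM in controls, and the actin regulator Marcksl1 151 to 193 CPM in the rat host against 56 to 107 CPM in controls. All 4 had groups apart, and none passed the test. Of 18 fetal and neonatal genes tested, 11 had positive differences, against 7258 of 15698 over all genes. The median of the 18 was 0.82 (2.58 without control experiment 2, 1.57 without its replicate 3 alone, and 0.48 without rat-host replicate 1). Pluripotency genes were low in both groups, with a sum of 1.08 to 23.6 CPM in the rat host against 0.232 to 13.2 CPM in controls, and 12 of 16 had no read in any rat-host library.

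Cholesterol synthesis genes had mostly positive differences. Of 23 tested, 22 had positive differences, with a median of 0.95 (0.58 without control experiment 1), and none was called. Their sum was 989, 1236, 1126 and 1174 CPM in the rat-host libraries and 600 to 832 CPM in the controls, without overlap. Dhcr7, the enzyme of the last step, had 26.1 to 39.3 CPM in the rat host against 2.81 to 22.2 CPM in controls (log2 difference 2.00, SE 0.50, adjusted p = 0.16, edgeR). Hmgcs1, HMG-CoA synthase, had 41.9 to 95.7 CPM in the rat host against 4.63 to 49.1 CPM in controls, and Fdps, farnesyl diphosphate synthase, 115 to 164 CPM in the rat host against 67.1 to 103 CPM in controls. Mvd, mevalonate diphosphate decarboxylase, had 28.5 to 66.8 CPM in the rat host against 1.39 to 32.1 CPM in controls. Dhcr7 and Fdps were apart from the controls, while Hmgcs1 and Mvd overlapped them.

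Glycolytic enzymes were also higher by sum, with 1 isoform on the other side. The 27 genes tested summed to 6977 to 7104 CPM in the rat host against 3710 to 5079 CPM in controls, with a median log2 difference of 0.45. Gapdh had 2452, 2129, 2348 and 2588 CPM in the rat-host libraries and 964 to 1443 CPM in controls, Ldha 562 to 786 CPM in the rat host against 178 to 286 CPM in controls, and Eno1 1102 to 1191 CPM in the rat host against 483 to 716 CPM in controls. All 3 were apart from the controls, Gapdh and Ldha with an adjusted p of 0.0529 (edgeR) just outside the threshold. Pfkp, the platelet form of phosphofructokinase, was the member called, at 0, 2.19, 2.2 and 22.2 CPM in the rat-host libraries against 13.7 to 93.6 CPM in controls (adjusted p = 0.027, edgeR), and rat-host replicate 4 overlapped the lowest controls. limma-voom gave Pfkp an adjusted p of 0.108, and edgeR did not call it without control experiment 1 replicate 2.

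**Figure D5:**
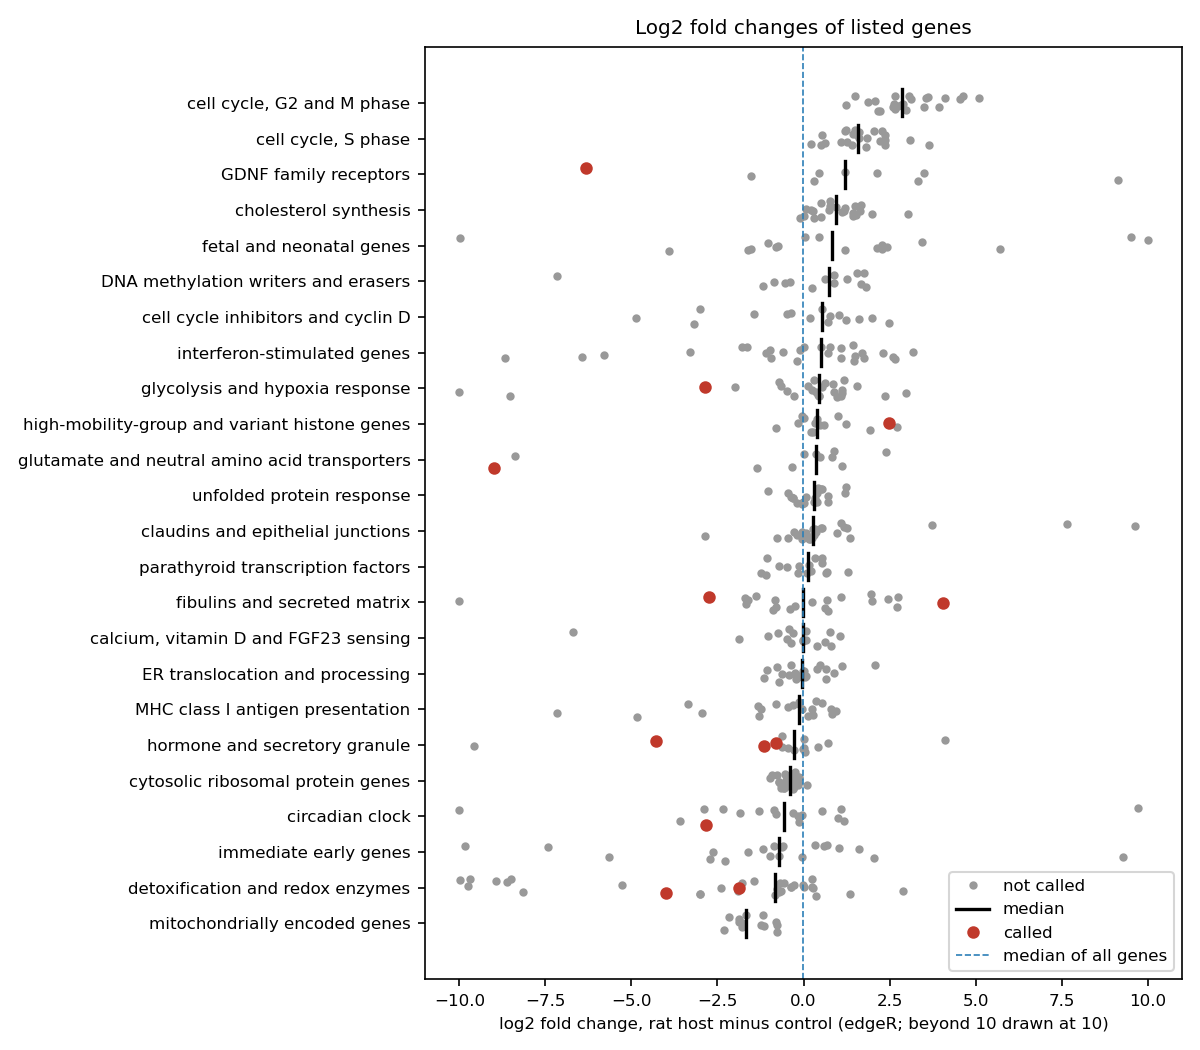
Log2 difference (horizontal axis, rat host minus control, edgeR) of the tested members of each gene list, 1 point a gene (called genes in red, values beyond 10 drawn at 10), with the median of each list as a black line. The G2 and M list has its median at 2.85 and the mitochondrially encoded list at -1.68, against -0.02 over all genes.

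All 13 mitochondrially encoded genes had negative differences, with a median of -1.68, and none was called by edgeR, while limma-voom called 12. mt-Nd1, a complex I subunit, had 640, 608, 560 and 458 CPM in the rat-host libraries and 1274 to 2573 CPM in controls. mt-Cytb, of complex III, had 1782 to 2197 CPM in the rat host against 3095 to 5867 CPM in controls, mt-Atp6, of ATP synthase, 730 to 1072 CPM in the rat host against 1941 to 4477 CPM in controls, and mt-Nd6, the subunit read from the light strand, 16.7 to 23.2 CPM in the rat host against 34.6 to 155 CPM in controls. These 4 genes were apart between the groups, with adjusted p between 0.144 and 0.2 (edgeR). Mitochondrial reads made up 1.54 to 1.76% of the rat-host libraries and 2.19 to 3.47% of the control libraries. Nuclear genes of oxidative phosphorylation summed to 14069 to 14332 CPM in the rat host, within the control range of 13154 to 15212 CPM, and the median of the 33 tested was -0.13. Of 34 genes of the cytosolic ribosome, 33 had negative differences, against 7980 of 15698 over all genes. The median of the 34 was -0.39, which was 0.01 in TPM. None of the 34 was called by edgeR, while limma-voom called 16. Rplp1, a stalk protein, had 110 to 135 CPM in the rat host against 147 to 273 CPM in controls, Rps9 232 to 263 CPM in the rat host against 296 to 510 CPM in controls, and Rps6, the S6 kinase substrate, 246 to 277 CPM in the rat host against 323 to 544 CPM in controls.

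Epithelial junction genes differed gene by gene. Cldn4, a claudin of tight epithelia, had 125, 113, 71.1 and 49.9 CPM in the rat-host libraries and 2.13 to 17.3 CPM in controls (log2 difference 3.75, SE 0.68, adjusted p = 0.0741, edgeR). Cdh1, E-cadherin, had 208 to 296 CPM in the rat host against 52 to 155 CPM in controls, and F11r, the junctional adhesion molecule JAM-A, 201 to 219 CPM in the rat host against 51.3 to 131 CPM in controls. All 3 were apart from the controls and none was called. Of 27 tested, 19 had positive differences (7258 of 15698 over all genes), with a median of 0.28.

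In the secretory pathway, single members stood out. Ssr2, a subunit of the translocon-associated complex, had 671, 563, 715 and 577 CPM in the rat-host libraries and 119 to 236 CPM in controls (log2 difference 2.08, SE 0.45, adjusted p = 0.122, edgeR). Srprb, the beta subunit of the signal recognition particle receptor, had 121 to 143 CPM in the rat host against 33.9 to 119 CPM in controls, while Sec62, a translocation channel partner, had 36.6 to 50 CPM in the rat host against 50.9 to 130 CPM in controls. All 3 were apart from the controls, in different directions, and the median of the 25 tested was -0.04, which turned positive in TPM (0.33). Pdia6, a disulfide isomerase, had 791 to 910 CPM in the rat host against 223 to 478 CPM in controls, and Sdf2l1, a chaperone cofactor, 137 to 187 CPM in the rat host against 67.2 to 141 CPM in controls. Among 22 genes of the unfolded protein response none was called, and 13 had positive and 8 negative differences, with a median of 0.31.

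Antigen presentation and interferon genes showed no common direction. Of 21 MHC class I pathway genes, none was called and the median was -0.14, which turned positive in TPM (0.27). Tap2, of the peptide transporter, had 30.8 to 69.6 CPM in the rat host against 61.8 to 172 CPM in controls, and H2-T23, a non-classical class I molecule, 85.3 to 112 CPM in the rat host against 175 to 304 CPM in controls. The immunoproteasome subunits Psmb9 (0 to 1.56 CPM in the rat host, 3.65 to 10.6 CPM in controls) and Psmb8 (0 to 2.49 CPM in the rat host, 0.0941 to 31.3 CPM in controls) were not called either. H2-T23 and Psmb9 were apart from the controls. Of 27 interferon-stimulated genes tested, none was called. Their median was 0.50 (0.61 with 4 genes held at the floor), and it was -0.40 without rat-host replicate 3 and -0.17 without control experiment 1. The summed level of rat-host replicate 3 was 1069 CPM and that of the other rat-host libraries 645 to 719 CPM, against 640 to 1109 CPM in controls. Irf7, which amplifies interferon production, had 25.7 to 76.6 CPM in the rat host against 0 to 12.7 CPM in controls, Irf9, a subunit of the interferon-stimulated gene factor complex, 28.6 to 79.2 CPM in the rat host against 0.0321 to 37.4 CPM in controls, and Ifitm2, a membrane restriction factor, 87.2 to 130 CPM in the rat host against 208 to 303 CPM in controls. MHC class II genes summed to 51.2 to 68.1 CPM in the rat host against 148 to 322 CPM in controls, without overlap.

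Immediate early genes, which respond within minutes to handling and to growth signals, varied most within the controls. Egr1 had 0.51, 2.55, 0.952 and 0.541 CPM in the rat-host libraries and 0.167 to 167 CPM in controls. Fos had 14, 15.8, 48.5 and 0.473 CPM in the rat-host libraries and 0.0836 to 354 CPM in controls, and Ier3, a survival factor, 0.0676 to 2.77 CPM in the rat host against 1.91 to 16.4 CPM in controls. All 3 overlapped the controls, and of 21 tested none was called.

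Transcript usage was compared, without a test, only among called genes and members of the parathyroid lists. Of these, 42 genes had at least 50 reads in every library, and 37 of the 42 had several transcripts. For 6 of the 113 transcripts compared, the share in all 4 rat-host libraries lay outside the range of all 8 controls. They belong to 4 genes (Npnt, Casr, Gnas and Rxrb). The share of all transcripts that lie apart in this way was not counted, so whether 6 of 113 is unusual was not tested. Casr-201 took 56.5, 63.5, 61.1 and 58.3% of Casr reads in the rat-host libraries and 41.2 to 55.3% in controls, and Casr-203 took 42.5, 35.8, 37.2 and 40.7% in the rat-host libraries and 44.5 to 58.7% in controls. As levels, Casr-203 had 132 to 153 CPM in the rat host against 270 to 420 CPM in controls, without overlap, while Casr-201 had 190 to 264 CPM in the rat host against 231 to 398 CPM in controls, with overlap. The starts of the 2 transcripts lie 528 bases apart on chromosome 16, and their last exons have 2279 bases in Casr-201 and 1508 in Casr-203. A single transcript of Gnas made up 9.28 to 11.5% of its reads in the rat host and 12.5 to 16% in controls. For Rxrb, a retinoid X receptor that pairs with the vitamin D receptor, 1 transcript had 0 to 2.5% in the rat host and 6.1 to 16.5% in controls, at gene levels of 30.2 to 63.7 CPM in the rat host against 15.8 to 64.5 CPM in controls.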

How the data were processed

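RNA was sequenced from pools of picked cells after cDNA synthesis with the SMART-Seq HT kit, per the labels' protocols. Salmon and the build GRCm39 are what the submitters' processing notes name, and for the Salmon version and the annotation the answer is not given in the sources used here. For each transcript the deposited tables hold the estimated (expected) count of reads, the TPM and the effective length, a length of transcript open to reads. Expected counts were used for the main test, TPM as deposited for an alternative and for levels per length, and effective length was not used.

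Of 116747 transcripts, 115685 matched a gene by identifier in GENCODE M21 (GRCm38), and the other 1062, with 0.493% of reads, were left out. That annotation supplied names and the structure of Npnt and Casr, and promoter windows came from RefSeq on GRCm38.p6. Counts were summed to 35458 genes, rounded, and summed again over the 4 libraries of an experiment. The 8 sums were fitted with edgeR 4.0.16 in R 4.3.3 (TMM scaling, default expression filter, quasi-likelihood test, 1 coefficient per arm, 4 residual degrees of freedom, Benjamini-Hochberg over all genes tested). The rat-host experiment is assumed to vary like the control and mouse-host experiments. Differences from each control experiment came from a single fit of the rat-host and control libraries with the same tool, 1 coefficient per experiment. Their SEs do not include scatter between experiments. CPM are on TMM-scaled library sizes, and SDs are over 4 libraries. A p-value here reflects only how these libraries and experiments scatter, which may be technical. No strand-specific counting is stated, so reads of overlapping antisense genes cannot be told apart.

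For the 18 within-experiment library pairs, the lowest chi-square per degree of freedom over genes was 41, so none was a repeat deposit. In simulated data of 15082 genes for this comparison, the fit called 0% of genes changed 2-fold, 26% of those changed 4-fold, 74% of those changed 8-fold and 64% of those changed 16-fold, and 9 of 14882 unchanged genes.

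The members, gene lists and alternatives were chosen with earlier results of these data known. Named genes were the 15 highest and 15 lowest called genes averaging at least 8 CPM in the higher arm and without a Gm or Rik symbol (4 qualified as higher), parathyroid list members at that level, and, for each other list, called members and up to 4 with the smallest p. A called gene and some list members are not reported here. Alternatives changed the scaling, the filter, the tool (DESeq2 1.42.0, limma 3.58.1), the unit fitted and the libraries included. Median-centred TPM, library totals without TMM and transcript shares without each library were added after the data had been seen.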

Additional observations from a re-analysis of the deposited data

Results flagged for a closer look

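Single libraries stood apart from the other 3 of their experiment in 41 of 402 tests of a gene or a summed list (10.2%), by a gap to the next library that passes Dixon's 95% criterion for 4 values. Chance flags about 1 in 20 groups. The flags fell in all 12 libraries, with 8 in control experiment 2 replicate 1 and 6 in control experiment 1 replicate 3.

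In rat-host replicate 3, Cyp4v3 had 3.3 CPM (0 to 0.0707 CPM in the other 3) and Ret had 4.91 CPM (0 in the others), and Klhl33 was lowest at 0.0732 CPM (0.135 to 0.146). In that library the fibroblast markers summed to 12 CPM (0.338 to 1.31). Rat-host replicate 1 had 0.146 CPM of Klk1b3 (0.0676 to 0.0732) and 45297 CPM of Pth (42194 to 42444). Rat-host replicate 2 was highest in Ache at 4.1 CPM (0.0728 to 0.146) and lowest in Rps9 at 232 CPM (259 to 263). Rat-host replicate 4 had 22.2 CPM of Pfkp (0 to 2.2) and 89.7 CPM of Dnmt3a (50.6 to 57.1), and was lowest in Psmb8 at 0 CPM (2.19 to 2.49) and in the summed genes of ER translocation at 4105 CPM (4237 to 4261).

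Mitotic genes set 2 control libraries apart. Control experiment 1 replicate 4 had a G2 and M sum of 1530 CPM (8.28 to 23.2 CPM in the other 3), with 31.8 CPM of Bub1b, 47.7 CPM of Ccna2 and 89.7 CPM of Tacc3, and a summed unfolded protein response of 5820 CPM (4855 to 5018). Control experiment 2 replicate 1 had a G2 and M sum of 530 CPM (15.4 to 23.5) and an S-phase sum of 1603 CPM (361 to 515), with 46.6 CPM of Fen1, 17.2 CPM of Bub1b, 29.8 CPM of Ccna2 and 10.1 CPM of Aurka, and also 112 CPM of Fgfr2 (63.6 to 71.4) and 277 CPM of Pax9 (151 to 159).

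Control experiment 2 replicate 3 had 3338 CPM of summed fibroblast markers (1.78 to 29.7 CPM in the other 3), 304 CPM of Cpe (231 to 237) and 303 CPM of Ifitm2 (208 to 220). Control experiment 1 replicate 3 had 3658 CPM of Tnmd (1107 to 1331), 69.1 CPM of Klhl33 (43.2 to 45), 131 CPM of F11r (76.2 to 82.6), 12.7 CPM of summed fibroblast markers (0 to 0.22), 1.03 CPM of Ncam1 and 0.0321 CPM of Igf2bp1 (both 0 in the others). Control experiment 1 replicate 1 had 16.6 CPM of Tceal3 (12.9 to 13.4), 236 CPM of Cdk4 (189 to 197) and 131 CPM of mt-Nd6 (64.8 to 70.8), and replicate 2 had 9 CPM of Irf7 (0 to 0.135). Control experiment 2 replicate 2 had 9.29 CPM of Cldn4 (2.13 to 3.01), and replicate 4 had 116 CPM of Vamp2 (84.1 to 89.4) and 22.2 CPM of Dhcr7 (2.9 to 5.4).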

How the results depend on the processing

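The count of called genes moved with most choices, while no called gene that was followed turned its sign. Against 41 called genes, 147 were called with no filter and 167 with a filter of at least 5 CPM, 771 by DESeq2, 1229 by limma-voom, 602 by limma-trend on TPM, 179 on median-centred TPM and 125 with library totals. The count was 1 with only the 3 experiments compared, 6 without control experiment 1 and 6 without control experiment 2. Leaving out mouse-host experiment 1 gave 103, leaving out mouse-host experiment 3 gave 26, and leaving out 1 library gave 35 to 71. The 27 called genes named in the text kept their direction under all 31 alternatives, and each lost its call under at least 1. limma-voom lost Cyp4v3, H2-T-ps, Itga7, Nek5, Pfkp and Tnmd, and limma-trend on TPM lost Chga, Col23a1, Cyp4v3, Itga7 and Pth. Of 77 genes followed that were not called, 61 gained a call under at least 1 alternative, and Vdr alone turned its sign: its difference of -0.01 was 0.36 in TPM, 0.12 without control experiment 1, 0.20 with library totals and -0.07 to 0.04 without 1 library. With fewer experiments in the fit, fewer degrees of freedom remain; the cause of the other shifts was not tested.

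The rule on library positions took in 4865 genes, 1212 when every control library had to be passed, and 4576 to 5994 without 1 library. Lists holding a called gene numbered 8 of 32, and 13 with no filter, 16 with at least 5 CPM, 28 by DESeq2, 29 by limma-voom, 24 in TPM, 14 in median-centred TPM, 13 with library totals, 0 with only the 3 experiments compared, 3 without control experiment 1, 3 without control experiment 2, 15 when mouse-host experiment 1 was left out and 7 to 9 without 1 library. Transcripts with shares apart numbered 6 of 113, and 6 to 9 without 1 library.

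The replicate numbers did not pair the libraries: correlations of same-numbered deviations lay between -0.12 and 0.0531. With single libraries as the unit, 1385 genes were called with no replicate block and 1059 with the replicate block, and lists holding a called gene numbered 30 with no replicate block and 29 with the replicate block. At this depth and number of experiments, simulated 2-fold changes were called in 0% of cases.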

Other observations

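The lists not described above held no called gene beside Slc1a1. Of 10 genes listed as factors of Pth mRNA stability, all were tested and none was called. Of the 10, 6 had positive and 4 negative differences, with a median of 0.18. Their sum was nonetheless 666 to 734 CPM in the rat host against 752 to 1060 CPM in controls, without overlap. The list includes Rps6, given above as lower with the ribosomal genes, and its part in the sum was not tested. Of 22 imprinted genes tested none was called, with a median of -0.24 and sums of 6519 to 8847 CPM in the rat host against 4640 to 7935 CPM in controls. The 15 cytosolic chaperones tested had a median of -0.26, and their sums of 4630 to 5406 CPM in the rat host overlapped 4005 to 5088 CPM in controls. The 23 nuclear and hormone receptor genes tested held no called gene, and 10 had positive and 12 negative differences. Their median was -0.16 (-0.00 with 4 genes held at the floor). The sum of this list was nonetheless 440 to 612 CPM in the rat host against 246 to 394 CPM in controls, without overlap. Among 11 transporters of glutamate and neutral amino acids, Slc1a1 fell, and the sum was 253 to 304 CPM in the rat host against 286 to 366 CPM in controls. Of 21 Hox genes, 7 were tested and none was called, and 14 had no read in any rat-host library.

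Summed levels of markers of other cell types differed by list. Endothelial markers were 0 to 0.676 CPM in the rat host against 0.0321 to 7.81 CPM in controls, and pericyte and smooth muscle markers 0 to 11.7 CPM in the rat host against 0 to 5.32 CPM in controls. T cell markers summed to 10.3 to 37.8 CPM in the rat host against 0.187 to 16 CPM in controls, and thymic epithelial markers to 9.4 to 34.9 CPM in the rat host against 3.13 to 23.7 CPM in controls. Thyroid follicular markers summed to 0 to 2.05 CPM in the rat host against 0 to 4.5 CPM in controls, and those of thyroid C cells to 0 to 1.84 CPM in the rat host against 0 to 15 CPM in controls. Neutrophil and mast cell markers were 0 to 12.3 CPM in the rat host against 10.1 to 42.2 CPM in controls, skeletal muscle markers 3.96 to 13 CPM in the rat host against 5.09 to 34.9 CPM in controls, and cartilage markers 35.1 to 40.6 CPM in the rat host against 26.4 to 76.4 CPM in controls. These levels overlapped between the groups in each of these 9 lists.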
